A study of Mus musculus with 6 samples.

Results

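Laminins are the cross-shaped glycoproteins that form the cell-side sheet of basement membranes, the thin matrix layer between cells and stroma. Each laminin is a trimer of an alpha, a beta and a gamma chain, joined inside the cell and secreted, after which alpha chains bind integrins and dystroglycan on the cell surface while the gamma chain binds nidogen. In the heart, cardiomyocytes, vessels and stromal cells are surrounded by such membranes, and fibroblasts make some of their chains.

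The 8 laminin chain genes described here were chosen by gene symbol from the 19446 genes of the deposited table, as the alpha chain genes Lama2, Lama3, Lama4 and Lama5, the beta chain genes Lamb1, Lamb2 and Lamb3, and the gamma chain gene Lamc1. They were measured by RNA-seq in 6 libraries of cultured cardiac fibroblasts (CFs), 3 from wild-type (WT) and 3 from CharmeKO mice, labelled as 5 weeks old. CharmeKO animals carry a polyadenylation signal inserted into the Charme locus, which encodes a long non-coding RNA, on the C57BL/6J background that WT animals share. The cells of both groups grew out of explants of atrial tissue from littermates, on fibronectin-coated plates in IMDM medium with serum. For these animals the methods give an age range that includes 5 weeks, and they do not say whether tissue was pooled. A library therefore cannot be tied to an animal, and it stood for atrial cells rather than for the ventricle. The study's methods say of all its experiments that they rested on independent isolations of primary cells, and the labels do not tie a library to an isolation, so p-values measure the spread between these libraries.

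In fits with genotype as the only term, no laminin chain gene differed between CharmeKO and WT CFs beyond the spread between libraries. Of the 8 genes, 0 passed an adjusted p of 0.05 in limma (0% of 15948 genes tested did), and 0 of 8 passed at an unadjusted p under 0.05 (0.897% of genes did). DESeq2 on the recovered reads called 0 of the 8 and 8 genes of all tested (0.0502%), and edgeR called none of either. Estimates depended on the fit for some chains. Lama2 had a log2 fold change of -1.33 in limma, -0.61 in edgeR and -0.61 in DESeq2, and Lama3 one of -0.77, -0.61 and -0.63. For Lamb3 the sign turned, from 0.29 in limma to -0.22 in edgeR and -0.23 in DESeq2. In all 8 chains the replicate number, which each WT library has in common with a CharmeKO library, accounted for more of the variance than the genotype. The same held over all genes together, at 67.7% for replicate number and 10.6% for genotype. Of the 5 degrees of freedom, replicate number has 2 and genotype 1. The fits above left the variance by replicate number in the spread between libraries. They were therefore conservative for differences between libraries of equal number, and their 0 of 8 cannot exclude such differences. With replicate number as a block, limma and DESeq2 each gave 1 of the 8, Lama2, an unadjusted p under 0.05, and edgeR 0. After adjustment 0 of the 8 passed in all of these.

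Library depth ranged from 38330019 to 46797446 reads on genes. Reads on the Charme entry were 5, 15 and 11 in WT libraries 1 to 3 and 0, 6 and 3 in CharmeKO libraries 1 to 3, too few for a comparison. All 10 fibroblast markers were measured, with the collagen gene Col1a1 the highest. Endothelial markers were led by Eng, with Pecam1 at or below 6.41 normalised reads and no entry under the symbols Tie1, Emcn and Cldn5. Haematopoietic markers were led by Lyz2, and cardiomyocyte markers by Tnnt2, with no entry under the symbols Myh6, Nppa and Myl7. In bulk RNA, fewer cells of a type and less RNA per cell cannot be told apart.

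The start regions of Lama2 and Lama5 are shown because these were the chains above trace level with the widest range over libraries, and because they contrast in base composition. The sequences are the 250 bases before the RefSeq start on GRCm38.p6, 5′ to 3′ on the strand of the gene, and capitals mark the motifs that a search of both strands found. The search covered the GC box with the letters GGGCGG, the CCAAT box with these letters, the TATA box with the letters TATAAA, the AP-1 site with the letters TGANTCA and the TEAD site with the letters GGAATG, and no match overlapped another.
Lama2, chr10:26980036-27619758 as a gene and chr10:27616943-27617192 for this window, minus strand: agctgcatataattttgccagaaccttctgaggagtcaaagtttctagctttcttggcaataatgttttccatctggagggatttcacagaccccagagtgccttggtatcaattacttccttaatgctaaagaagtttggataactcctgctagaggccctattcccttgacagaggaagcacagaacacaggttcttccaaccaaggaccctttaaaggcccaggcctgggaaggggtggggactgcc
Lama5, chr2:180176373-180225859 as a gene and chr2:180225860-180226109 for this window, minus strand: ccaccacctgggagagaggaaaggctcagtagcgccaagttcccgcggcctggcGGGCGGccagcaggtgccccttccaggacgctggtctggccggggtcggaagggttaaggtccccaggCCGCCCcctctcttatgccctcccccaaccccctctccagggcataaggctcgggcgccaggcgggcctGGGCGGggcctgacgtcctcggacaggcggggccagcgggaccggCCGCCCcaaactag

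The Lama5 window had a GC content of 72.4% and 4 GC boxes. The Lama2 window had 47.2% GC and none of the 5 motifs, and it lay wholly inside the GENCODE M21 gene body of Lama2, between exons, because the RefSeq start used is downstream of the GENCODE gene start. Over 32851 promoters of the same length the median GC content was 52.4%, and the GC box occurred in 32.7%, the CCAAT box in 33.8%, the TATA box in 12.4%, the AP-1 site in 6.75% and the TEAD site in 12.6%. Of the other members with an entry, the Lamb1 window had 62.0% GC, 2 GC boxes and 1 CCAAT box, and the Lamb2 window 43.6% GC and none of the motifs. The 2 entries of Lamb3 had 58.8% and 61.2% GC, with 1 TEAD site in the second and no other match. Such matches describe letters only.

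The alpha chain gene Lama2 encodes the chain that joins the muscle basement membrane to dystroglycan, and its loss causes a congenital muscular dystrophy. It had 7654, 735 and 2054 normalised reads in WT libraries 1 to 3, and 6171, 358 and 327 in CharmeKO libraries 1 to 3. The number 1 libraries of both genotypes were the highest and the groups overlapped, with a 23.4-fold range over all 6 libraries. Lama2 was lower in CharmeKO in all 3 pairs of equal number, by log2 differences of -0.31, -1.04 and -2.65, and it was the only member of the 8 to be so (14% of all genes tested were lower in all 3 pairs). The log2 fold change was -1.33 (SE 1.33, 95% interval -4.53 to 1.87, adjusted p = 1.0 in limma), against -0.61 in edgeR and in DESeq2 on recovered reads, and in limma it ranged from -2.72 without CharmeKO library 1 to -0.45 without WT library 1. With the replicate number as a block, limma gave Lama2 an unadjusted p under 0.05, the only chain of the 8 (5.37% of all genes), and an adjusted p of 0.80. With that block, the log2 fold change of Lama2 was -1.31 in edgeR (unadjusted p = 0.0519) and -1.32 in DESeq2 (unadjusted p = 0.00273, adjusted p = 0.23). DESeq2 with the block called 0 of the 8 on all pairs (0.401% of all genes). It called Lama2 only when pair 1 was left out (log2 fold change -1.85, adjusted p = 0.0199, with 151 genes called in all).

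Marker sums of 4 other cell types, mesothelial and epithelial, haematopoietic, endothelial and cardiomyocyte, were highest in the number 1 library of both genotypes, as Lama2 was. The 12 of 16 mesothelial and epithelial markers that were measured summed to 14633, 2670.3 and 4511 normalised reads in WT and 16489.6, 5873 and 1107 in CharmeKO. That sum was carried by Upk3b, Upk1b and Lrrn4 in the number 1 libraries, and its other members did not all run the same way. Upk3b, a mesothelial surface protein gene, had 4455, 322 and 651 in WT and 4537, 656 and 297 in CharmeKO. Wt1, a mesothelial transcription factor gene, was lowest in WT 1, with 213, 1011 and 711 in WT and 301, 1500.2 and 217 in CharmeKO. Bnc1 was highest in the number 2 libraries, at 1003 in WT and 2093 in CharmeKO, and Krt19 and Aldh1a2 in WT 3, at 781 and 1420.5. Krt8, Krt14, Krt5 and Epcam had no entry under these symbols, and Cdh1 did not exceed 4.39. Haematopoietic markers summed to 8348, 4374 and 1730.3 in WT and 18039, 12242 and 735 in CharmeKO. Endothelial markers summed to 17033, 11343 and 8913 in WT and 14104, 12391 and 9465 in CharmeKO, and cardiomyocyte markers to 788, 477 and 237 in WT and 1052, 367 and 237 in CharmeKO. Schwann cell markers, all 8 of which were measured and of which Ncam1 was the highest, summed to 3755, 5819 and 7481 in WT and 4256, 2649.5 and 2821 in CharmeKO. Their defining gene Sox10 had 49.2, 4.27 and 4.39 in WT, and 67.3, 0 and 0 in CharmeKO. The 14 smooth muscle and pericyte markers, led by Acta2, summed to 143779, 35502 and 254945 in WT and 136240.1, 13668 and 34143 in CharmeKO. The part of these cells in the level of Lama2 was not tested.

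**Figure D1:**
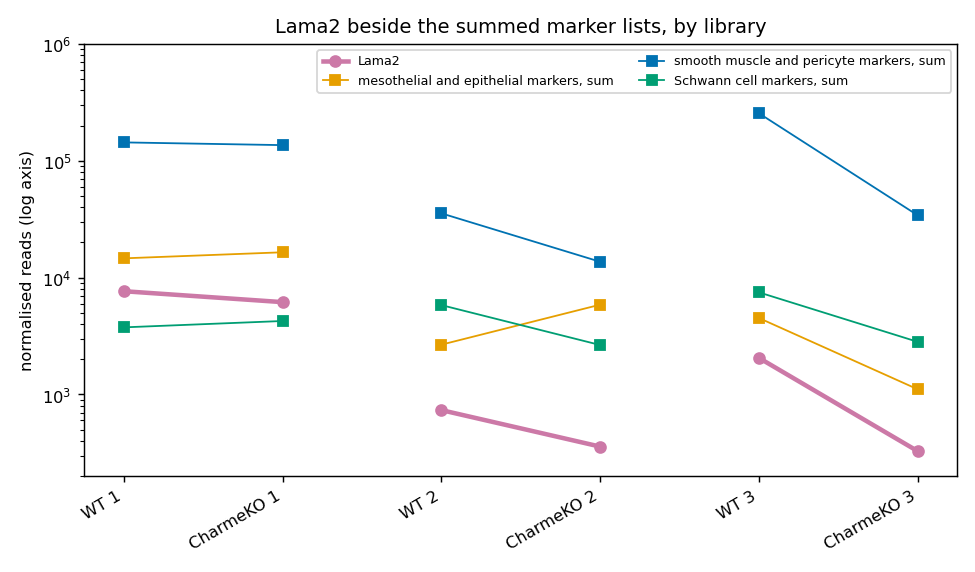
Normalised reads (log axis) of Lama2 and the summed reads of 3 marker lists in each of the 6 libraries, with lines joining the WT and the CharmeKO library of equal replicate number. Lama2 and the mesothelial and epithelial sum were highest in WT 1 and CharmeKO 1, at 7654 and 6171 for Lama2, and Lama2 was lower in CharmeKO in each pair.

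Lama4, an alpha chain of endothelial and mesenchymal basement membranes at chr10:38965515-39110188 on GRCm38, was the steadiest of the alpha chains. It had 7940.5, 6974 and 6733 normalised reads in WT and 10817, 8946 and 5188 in CharmeKO. The number 1 library was the highest of each genotype. WT levels lay inside the range of the CharmeKO levels, with means of 7216 ± 639 and 8317 ± 2867 (SD, n = 3). The log2 fold change was 0.14 (SE 0.29, 95% interval -0.55 to 0.84), with log2 differences of 0.45, 0.36 and -0.38 in pairs 1 to 3.

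Lama5, the widely expressed alpha chain of epithelial and vascular basement membranes, had 8003, 15499.8 and 6044 normalised reads in WT and 4487, 9396 and 15355 in CharmeKO. WT 2 and CharmeKO 3 were the highest, and the groups overlapped. Its log2 fold change was -0.07 (SE 0.53, 95% interval -1.34 to 1.20), with -0.83 and -0.72 in pairs 1 and 2 and 1.34 in pair 3. With the replicate block and without pair 3, DESeq2 called it (log2 fold change -0.79, adjusted p = 0.00136, with 86 genes called in all), and the estimate turned positive without pair 1 (0.31) or without pair 2 (0.26). Replicate number accounted for 41.3% of its variance, the smallest share among the members.

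Lama3, the alpha chain of epithelial adhesion complexes, was at trace level. WT libraries held 11, 12 and 8 of its reads and CharmeKO libraries 4, 14 and 4, and no difference was detectable at this depth (log2 fold change -0.77, 95% interval -2.38 to 0.83).

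Of the beta chains, Lamb1 is part of many embryonic and stromal laminins, and it lies at chr12:31265234-31329644 on GRCm38. It had 20513, 40277 and 30802 normalised reads in WT and 22237, 33934 and 38558 in CharmeKO. The number 1 libraries of both genotypes were the lowest, opposite to Lama2. The log2 fold change was 0.06 (SE 0.34, 95% interval -0.76 to 0.89).

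Lamb2, the beta chain of neuromuscular and vascular laminins at chr9:108479736-108490530, had 13591, 9797 and 9940.1 normalised reads in WT and 13597, 11499 and 8730.5 in CharmeKO. The number 1 libraries were the highest and nearly equal. Its log2 fold change was 0.01 (SE 0.24, 95% interval -0.56 to 0.59), the narrowest interval among the 8 genes.

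Lamb3, the beta chain that pairs with Lama3 in epithelial adhesion complexes, lies at chr1:193207699-193343878 and had 42, 13 and 3 reads in WT and 19, 22 and 12 in CharmeKO. WT 3 was at the floor of 3 reads. The interval of its log2 fold change of 0.29 ran from -1.86 to 2.45, and the estimate was negative with DESeq2 (-0.23).

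Lamc1, the gamma chain in nearly all laminin trimers, lies at chr1:153218922-153332786. It had 30653, 18795 and 20660.2 normalised reads in WT and 30831, 15296 and 22204 in CharmeKO. Both number 1 libraries stood above the others, both number 2 libraries were the lowest, and the log2 fold change was -0.06 (SE 0.33, 95% interval -0.85 to 0.73). Replicate number, with 2 of the 5 degrees of freedom, accounted for 93.8% of the variance of Lamc1, 89.2% of Lamb1, 87.4% of Lamb2, 79.5% of Lama2, 70.2% of Lamb3, 64.8% of Lama4 and 48.8% of Lama3, against 67.7% over all genes together. Only Lamc1 of the 8 reached 90%, which 22% of all genes tested did. Genotype accounted for 0.71% of the variance of Lamc1 and 31.2% of that of Lama3, the largest share among the members.

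**Figure D2:**
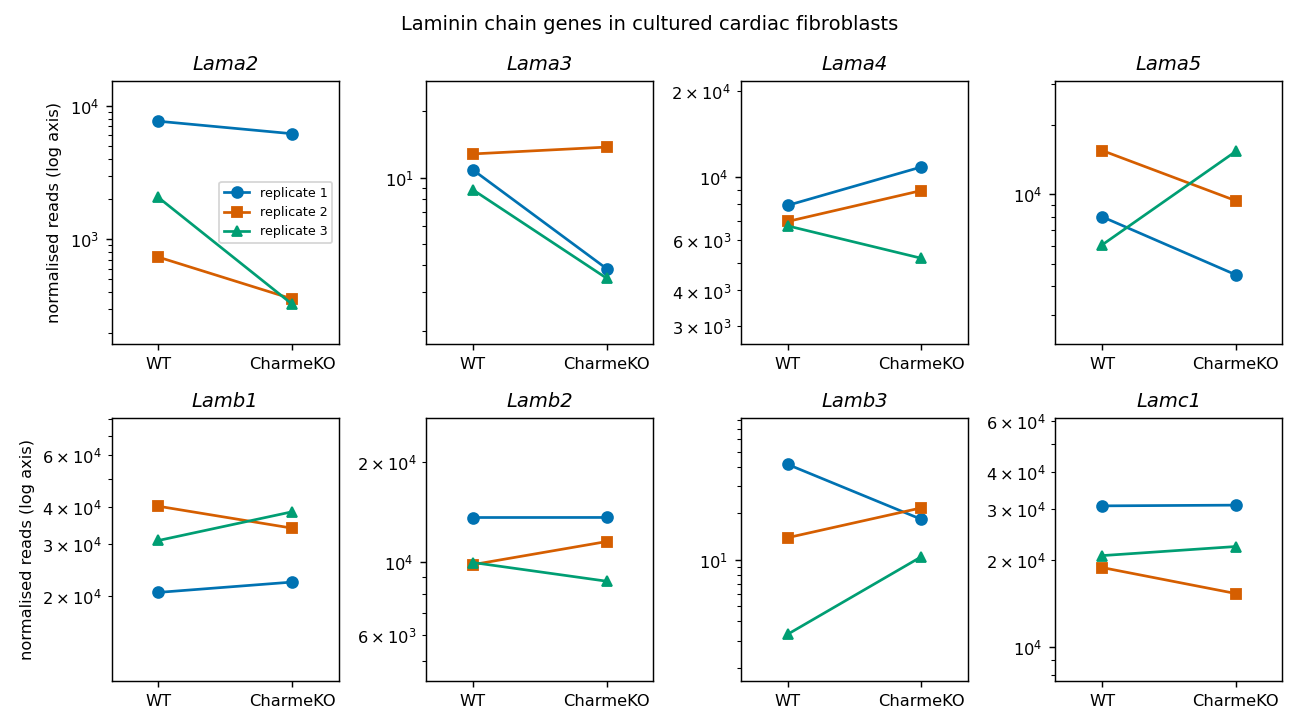
Normalised reads (log axis, a separate scale for each gene) of the 8 laminin chain genes in the WT and CharmeKO libraries, with lines joining libraries of equal replicate number. In Lamc1, Lamb2, Lama2 and Lama4 replicate 1 lay on top in both genotypes and in Lamb1 at the bottom, while WT and CharmeKO overlapped in all 8 genes.

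**Figure D3:**
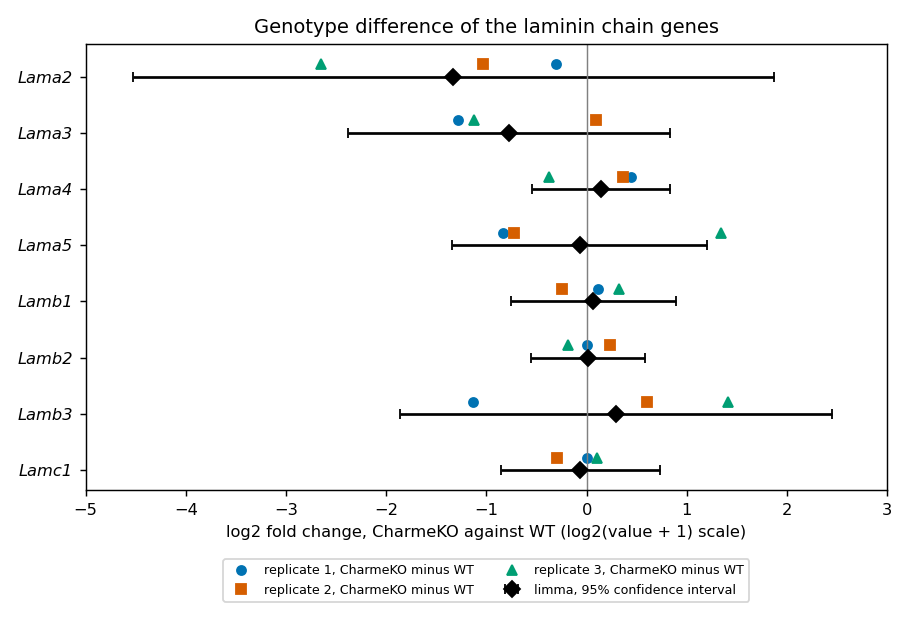
Log2 fold change of CharmeKO against WT for each laminin chain gene, as the limma estimate with its 95% confidence interval (diamonds, n = 3 per group) and as the difference within each pair of equal replicate number (symbols). All 8 intervals spanned 0, and the 3 pair differences lay on the same side only for Lama2.

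Groups without overlap were found for 0 of the 8 chains (4.11% of all genes tested had such groups), and higher levels in all 3 pairs for 0 of 8 (16.4% of all genes). In limma 1 of the 8, Lama2, differed by a log2 value of 1 or more (5.04% of all genes did, counting both directions). With genotype as the only term its log2 fold change was -0.61 in edgeR and in DESeq2. With the replicate block it was -1.31 in edgeR and -1.32 in DESeq2.

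To compare chains with each other, normalised reads were divided by the exon length of each gene in kb. On that scale Lamb1 was the highest, with a level of 3079 ± 997 in WT and 3184 ± 848 in CharmeKO (SD, n = 3), followed by Lamc1 at 2825 ± 771 and 2754 ± 941 and Lamb2 at 1827 ± 354 and 1854 ± 401. The alpha chains were lower, with Lama5 at 865 ± 438 and 856 ± 478, Lama4 at 598 ± 52.9 and 689 ± 238, and Lama2 at 213 ± 225 and 140 ± 206. Lamb3 and Lama3 were near or below 3 per kb in the mean of either group. Neighbours overlapped over the 6 libraries except Lamb2 and Lama5, of which the lowest and the highest library were 1435 and 1361 per kb, and Lama2 and Lamb3. Per kb of coding length Lama4 lay above Lama5, at 1325 ± 117 against 883 ± 447 in WT and 1527 ± 526 against 874 ± 488 in CharmeKO, so the order of these chains depends on the length used.

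As shares of the summed alpha chain level per kb of exon, which includes Lama1, Lama5 took 37.9%, 65.6% and 40.8% in WT and 23.4%, 51.4% and 67.6% in CharmeKO. Lama4 took 35.5%, 27.8% and 42.9% in WT and 53.2%, 46.2% and 21.6% in CharmeKO. Lama2 took 25.3% and 22.4% in the number 1 libraries of WT and CharmeKO, and between 1.00% and 9.66% in the other 4.

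**Figure D4:**
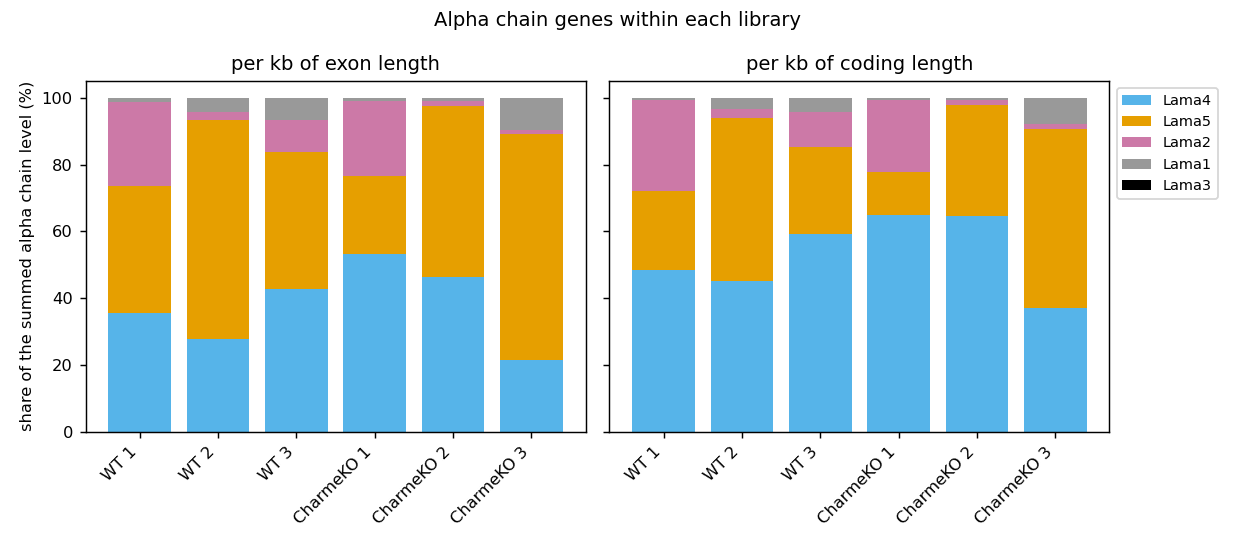
Share (%) of each alpha chain gene in the summed alpha chain level of each library, per kb of exon length (left) and of coding length (right). Lama4 and Lama5 made up most of every bar, Lama2 took 25.3% and 22.4% of WT 1 and CharmeKO 1 on exon length, and Lama3 was too low to be visible.

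The balance between chains of the same type was compared as log2 ratios of normalised reads in each library. The ratio of Lamb2 to Lamb1 was -0.59, -2.04 and -1.63 in WT and -0.71, -1.56 and -2.14 in CharmeKO. Its difference of -0.05 was smaller than the spread (SD 0.75 and 0.72, n = 3), with p = 0.80 in a two-sided exact permutation test and 0.80 after adjustment over the 2 ratios. Its sign turned without WT 1 (0.36) or CharmeKO 3 (0.29). The ratio of Lama4 to Lama2 was 0.05, 3.25 and 1.71 in WT and 0.81, 4.64 and 3.98 in CharmeKO. It was higher in CharmeKO in all 3 pairs, by 0.76, 1.39 and 2.27, but the difference of 1.47 was within the spread of the groups (SD 1.60 and 2.05, exact permutation p = 0.40, adjusted 0.80, n = 3). Groups of 3 cannot go below p = 0.10 in that test, and an exact sign-flip test over the pairs gave 0.25, the smallest it allows.

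Laminin receptors on the cell surface include dystroglycan and the integrins that share the beta chain Itgb1. Of the 9 receptor genes 0 were called by limma, with a median log2 fold change of -0.23 against 0.0022 over all genes tested. At an unadjusted p under 0.05 limma gave 1 of the 9 (0.897% of all genes), and 1 of the 9 had groups without overlap (4.11% of all genes). Dag1, which encodes dystroglycan, was the most even, at 19264, 18092 and 24562 normalised reads in WT and 19499, 18249.7 and 23721 in CharmeKO (log2 fold change -0.01). Itgb1 had 120684, 44871 and 111599.7 in WT and 103005, 35595 and 52080.3 in CharmeKO, lower in each pair but overlapping between groups. Itga1, whose integrin binds collagens as well as laminins, had 677, 1582 and 1034 in WT and 506, 614 and 618 in CharmeKO. These groups did not overlap (log2 fold change -0.84, SE 0.33, adjusted p = 1.0 in limma). Itga2, the collagen and laminin integrin chain with the next lowest p, was high only in WT 3, at 497, against 6.96 to 41.3 elsewhere. Of the laminin integrin chains proper, Itga3 had a log2 fold change of -0.23, Itga6 of -0.13 and Itga7 of -0.58, and Bcam, a receptor for the Lama5 chain, one of 0.05. Itga6 was highest in the number 1 libraries, at 1848 in WT and 1222 in CharmeKO, and lowest in the number 2 libraries, at 202 and 144. In pair 3 it was higher in CharmeKO, at 1138 against 703.

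The partners of laminin in the basement membrane include nidogens, perlecan, agrin and collagen IV. Of the 12 genes 11 passed the filter on low reads (Egflam did not), 0 were called by limma, and the median log2 fold change was -0.36. At an unadjusted p under 0.05 limma gave 2 of the 11 (0.897% of all genes), and 1 of the 11 had groups without overlap (4.11% of all genes). Nid1, a nidogen that links the gamma chain to collagen IV, had 68264, 58925 and 100745.6 normalised reads in WT and 56759, 35815 and 211758 in CharmeKO. Nid2 had 25917, 28915 and 26151 in WT and 21923, 75021 and 273619 in CharmeKO. In both nidogens CharmeKO 3 was the highest library, and the groups overlapped (log2 fold changes 0.03 and 1.51). Agrn, the heparan sulphate proteoglycan agrin that binds laminin and dystroglycan, had 5321, 6003 and 5656 in WT and 3682, 2919.9 and 5089.7 in CharmeKO. These groups did not overlap either (log2 fold change -0.57, SE 0.23, adjusted p = 1.0 in limma). Ntn1, a netrin with a domain like that of laminin, had 479, 1220.4 and 961 in WT and 487, 385 and 228 in CharmeKO (log2 fold change -1.24, SE 0.44, adjusted p = 1.0 in limma). The collagen IV genes Col4a1 and Col4a2 and the perlecan gene Hspg2 had log2 fold changes of -0.28, -0.29 and -0.36. With the replicate block, DESeq2 called 0 of the receptors and partners on all pairs, Nid2 (log2 fold change 2.38, adjusted p = 0.000391) and Ntn1 (-1.87, adjusted p = 0.000101) without pair 1, Col15a1 (1.61, adjusted p = 0.0302) without pair 2 and Agrn (-0.79, adjusted p = 0.0426) without pair 3. Col15a1, a basement membrane zone collagen gene, had 300.4, 3084 and 1935 normalised reads in WT and 594, 79.6 and 8972 in CharmeKO. Its limma log2 fold change on all libraries had the other sign, -0.69, with 0.98, -5.26 and 2.21 in pairs 1 to 3.

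Inside the cell, dystroglycan is tied to actin by the dystrophin complex. Of the 11 genes of that list 9 were tested. None was called, and the median log2 fold change was -0.37. The sarcoglycan gene Sgcd had the lowest p of the list (adjusted p = 1.0 in limma), with 162, 157 and 398 normalised reads in WT and 121, 120 and 45.2 in CharmeKO. Its groups did not overlap, as 1 of the 9 genes (4.11% of all genes tested had such groups). Sgcb, another sarcoglycan, had 1833, 1831 and 1804 in WT and 1870, 1262 and 1147 in CharmeKO, nearly equal in pair 1 and lower in pairs 2 and 3 (log2 fold change -0.39).

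Laminin binds dystroglycan through a sugar chain that a set of glycosyltransferases builds. All 12 genes of that list were tested, 0 were called, and the median log2 fold change was -0.02. Pomt2, which adds the mannose at the base of that chain, was among the 2 of lowest p, with a log2 fold change of -0.16. Of the 6 proteases that trim laminin chains or related matrix proteins, 5 were tested (Tll2 did not pass the filter) and 0 were called. Tll1, a tolloid-like protease, had 3396, 4201 and 4804 normalised reads in WT and 1927, 416 and 4085 in CharmeKO (log2 fold change -1.46, adjusted p = 1.0 in limma). The gelatinase gene Mmp9 had 17.6 to 28.8 in WT and 10.4 to 113.1 in CharmeKO (log2 fold change 0.95).

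**Figure D5:**
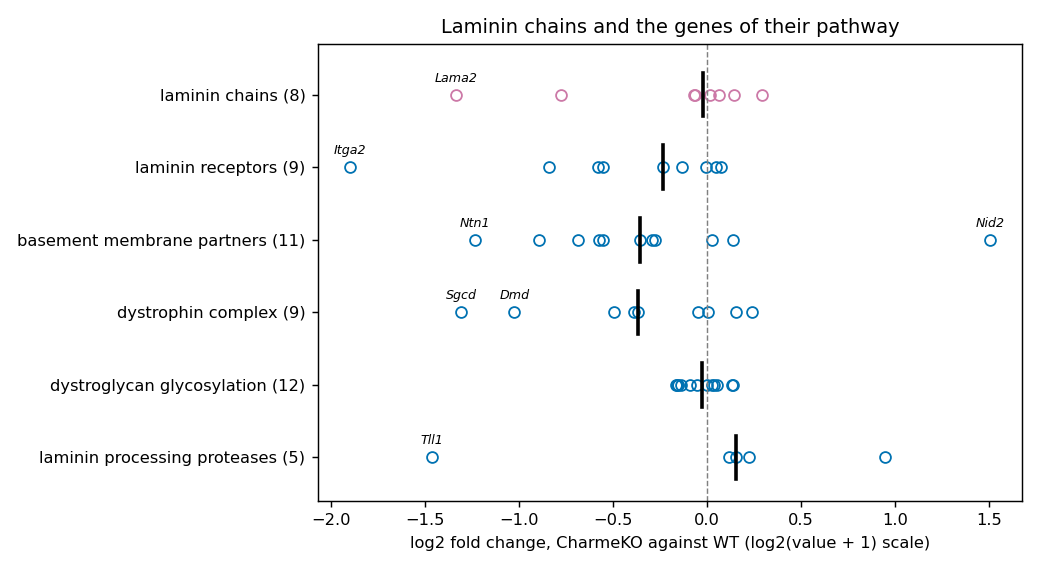
Log2 fold change of CharmeKO against WT for each tested gene of the laminin chains and of 5 pathway lists, with the number of genes in brackets, the list median as a bar, and the median of all genes tested, 0.0022, as a dashed line. Genes that differed by a log2 value of 1 or more are named. The medians were -0.02 for the laminin chains and -0.36 for the basement membrane partners, and 0 genes of these lists passed an adjusted p of 0.05.

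For each chain, the genes whose levels ran most closely with it over the 6 libraries were found by Pearson's r on log2(value + 1) of the normalised reads. The search covered 11545 or 11546 genes with a mean of at least 100 normalised reads. The 6 points share their libraries and replicate numbers, and the values are descriptions. Lama2 ran with Pde4dip, a centrosomal and Golgi anchoring protein (r = 0.999), and Gmps, an enzyme of GMP synthesis (r = 0.999). Pde4dip stood at 7789.8 normalised reads for WT 1 and 7359 for CharmeKO 1, against 2589 to 4835 for the other libraries. Lama4 ran with the sugar kinase gene Nagk (r = 0.995) and the ribosomal protein gene Rps25 (r = 0.991), and Lama5 with Chpt1, an enzyme of phosphatidylcholine synthesis (r = 0.992), and Kctd18 (r = 0.985). Lamb1 ran with the mitochondrial tRNA synthetase gene Vars2 (r = 0.996) and Trp53i13 (r = 0.995), Lamb2 with the lipid transfer gene Stard5 (r = 0.998) and 6530402F18Rik (r = 0.995), and Lamc1 with the receptor gene Gpr39 (r = 0.997) and the dynactin gene Actr10 (r = 0.996). For the trace genes the closest were the zinc transporter gene Slc30a7 (r = 0.980) and Cdc14a (r = 0.967) to Lama3, and the cadherin gene Cdh23 (r = 0.992) and Ccdc122 (r = 0.960) to Lamb3.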

How the data were processed

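The table holds a normalised signal per gene, deposited by the authors, who made it by aligning reads with STAR, counting them per gene on the reverse strand against Ensembl release 87 with Charme added, removing genes with few reads and dividing by DESeq2 size factors. The processing notes name GRCm39, list a human build beside it and give no tool versions. Ensembl release 87 belongs to GRCm38, and this difference was not resolved. Coordinates and lengths used here come from GENCODE M21 and RefSeq on GRCm38, matched by gene ID, because the table holds none. STAR's gene counts leave out reads that overlap several genes on the same strand. The gene bodies of Lama2, Lama3, Lama5, Lamb3 and Lamc1 each overlap another gene on the same strand in GENCODE M21. Overlap of exons was not examined, and a loss of reads in these chains was not tested. Promoter entries were found for 5 of the 8 members.

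Reads were recovered by dividing by the value of 1 read, and 100% of values came out whole within 1e-06. Genes needed 10 reads or more in 2 libraries or more, and the 15948 that had them, all 8 members included, were tested with limma 3.58.1 (R 4.3.3) on log2(value + 1), which understates changes of low genes, with genotype as the term, two-sided, and Benjamini-Hochberg adjustment over all genes. An adjusted p of 1.0 stands for values that round to 1. A normalised read is a read divided by the size factor, with library depths as given above. edgeR 4.0.16 and DESeq2 1.42.0 on recovered reads, the replicate block, other pseudocounts, filters and scalings, and leaving out each library were alternatives. Groups and replicate numbers came from the sample titles. Deviations from the group means correlated at 0.762, 0.514 and 0.217 between libraries of equal number and at -0.643 to 0.222 otherwise. The 0.217 of pair 3 was below the 0.222 between WT 2 and CharmeKO 3, so these values do not single out pair 3. Deviations within a group cancel out, so high values for some pairings lower others in advance. Equal numbers were taken as pairs all the same, although the labels do not say what they share. Native CFs were not analysed here. Scripts were tested on simulated data.

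The members and lists were chosen with earlier results of these data known. Named genes were the 8 members, 12 receptors and partners (Dag1, Itga3, Itga6, Itga7, Itgb1, Bcam, Nid1, Nid2, Hspg2, Agrn, Col4a1 and Col4a2), the 2 genes of lowest p in each pathway list, the 2 genes most like each member, and the highest marker of each cell type, of which some are not reported here. Col15a1, the markers Pecam1, Upk1b, Lrrn4, Wt1, Bnc1, Krt19, Aldh1a2, Cdh1 and Sox10, and the shares within chain types were added after their values were seen. Figures were drawn with matplotlib 3.10.9.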

Additional observations from a re-analysis of the deposited data

How the results depend on the processing

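Of the 8 laminin chains 0 were called in 21 of 23 alternatives, among them edgeR, DESeq2, both with the replicate block, and leaving out each library (0 to 0 called). With the replicate block DESeq2 called 1 chain without pair 1 (Lama2) and 1 without pair 3 (Lama5), and 2, 1 and 1 receptor or partner genes without pairs 1, 2 and 3. The block moved no other chain past the threshold, and the number of genes called in all rose from 8 to 64 in DESeq2 and stayed at 0 in limma and edgeR. Without pairs 1, 2 and 3 the DESeq2 number was 151, 13 and 86. No library alone changed a call, and the cause of the changes was not tested. Lama2 and Lama3 kept their sign in every alternative, as did the ratio of Lama4 to Lama2, from 0.67 to 2.64 over the single libraries left out. Lama2 ranged from -2.72 to -0.45, with -0.61 in edgeR and in DESeq2. With the replicate block these 2 tools gave it -1.31 and -1.32.

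The signs of near-zero estimates turned. Lamb3 was -0.22 with edgeR and -0.23 with DESeq2. Over the single libraries left out, log2 fold changes ranged from -0.079 to 0.45 for Lama4, from -0.48 to 0.40 for Lama5, from -0.20 to 0.30 for Lamb1, from -0.13 to 0.19 for Lamb2, from -0.56 to 1.10 for Lamb3 and from -0.31 to 0.20 for Lamc1, and the Lamb2 to Lamb1 ratio difference ranged from -0.43 to 0.36. With the replicate block and a pair left out, limma and DESeq2 gave Lama4 -0.0084 and -0.012 without pair 1, Lama5 0.31 and 0.31 without pair 1 and 0.26 and 0.26 without pair 2, Lamb2 -0.093 and -0.088 and Lamc1 0.056 and 0.062 without pair 2, and Lamb1 -0.065 and -0.073 and Lamb3 -0.27 and -0.29 without pair 3. The depth limits Lama3 and Lamb3, whose reads were between 3 and 42.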

Other observations

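The table also held laminin chain genes outside the 8 members. Lama1, an alpha chain of embryonic basement membranes, had 219, 874 and 835 normalised reads in WT libraries 1 to 3 and 157, 142 and 1886 in CharmeKO libraries 1 to 3. CharmeKO 3 was the highest library, the groups overlapped, and the range over the 6 libraries was 13.3-fold. Its log2 fold change was -0.64 (SE 1.10, adjusted p = 1.0 in limma). Lamc3 was at trace level, with 14, 10 and 6 reads in WT and 9, 15 and 2 in CharmeKO.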
